A study of Homo sapiens with 12 samples.

Results

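The proteasome family examined here is the set of protein-coding human genes whose symbols run PSMA, PSMB, PSMC, PSMD, PSME, PSMF or PSMG followed by a number. By that rule 48 of the 60664 genes in the deposited count table belonged to it. They were sorted into 7 core alpha genes, 7 constitutive core beta genes, 3 immunoproteasome genes, 2 tissue-restricted core genes, 6 cap ATPases, 14 cap genes without ATPase activity, 4 activators, 1 inhibitor and 4 assembly factors. The rule reads symbols and no measured value, but the family was picked with results of these data in view, so its counts and medians are a description and not independent support. The libraries are bulk RNA-seq of SK-N-SH, an established human neuroblastoma line that holds neuron-like and flat, substrate-adherent cells, grown on surfaces of 1, 8 or 30 kilopascals (kPa, a unit of elastic modulus in which a larger number is a stiffer surface). There were 4 libraries at each stiffness, 12 in all, and no genotype, drug or other treatment is named for any of them. The labels do not say whether the libraries of a stiffness came from separate cultures, so p-values measure the spread between these libraries, which may be technical. In bulk RNA a lower level can be fewer cells of a type or less RNA per cell, and these cannot be told apart.

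The proteasome is the large protease that degrades ubiquitin-tagged proteins in the cytosol and nucleus. Its barrel-shaped core is built of outer rings of alpha subunits, which gate the entry, and inner rings of beta subunits, of which PSMB5, PSMB6 and PSMB7 carry the constitutive cutting sites. A cap of ATPases and scaffold proteins recognises, unfolds and feeds in tagged substrates, and other activators can bind the same end of the barrel. Cytokines such as interferon-gamma lead cells to build the immunoproteasome instead, with PSMB8, PSMB9 and PSMB10 in place of the constitutive cutting subunits, which changes the peptides offered to T cells. NFE2L1 is known to drive the genes of the constitutive particle together when proteasome activity is short.

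The promoters of 4 members are shown because each holds a match to at least 1 of the motifs searched, and because PSMB3 and PSMB5 were called at 8 against 1 kPa while PSMB10 and PSME2 were not. In the RefSeq promoter table (GRCh38.p14), 42 of the 48 members had an entry, and PSMA7, PSMB1, PSMB6, PSMB7, PSMD4 and PSMG3 had none. The 250 bases before the start were searched on both strands for TGACNNNGC (the part of the antioxidant response element bound by NFE2L1 and NFE2L2 with small MAF proteins), for CCAAT (the NF-Y box), for TTCNNNGAA (a STAT element) and for an IRF element (GAAA, any 2 bases, GAAA). Capitals mark the matches, each promoter reads 5′ to 3′ along the gene's strand, and in these 4 windows no match shares a base with another. The windows are chr17:38752491-38752740 on the plus strand for PSMB3, chr14:23035221-23035470 on the minus strand for PSMB5, chr16:67936851-67937100 on the minus strand for PSMB10 and chr14:24146611-24146860 on the minus strand for PSME2.
PSMB3: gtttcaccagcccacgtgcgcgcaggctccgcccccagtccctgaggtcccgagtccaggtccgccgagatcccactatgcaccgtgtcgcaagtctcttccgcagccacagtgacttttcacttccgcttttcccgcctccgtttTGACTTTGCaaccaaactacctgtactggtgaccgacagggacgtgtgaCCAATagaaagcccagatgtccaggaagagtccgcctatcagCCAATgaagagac
PSMB5: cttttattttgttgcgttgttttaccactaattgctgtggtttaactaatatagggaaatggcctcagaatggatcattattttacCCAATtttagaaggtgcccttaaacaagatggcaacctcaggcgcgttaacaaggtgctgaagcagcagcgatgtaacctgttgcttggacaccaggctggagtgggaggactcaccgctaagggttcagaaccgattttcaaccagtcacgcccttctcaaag
PSMB10: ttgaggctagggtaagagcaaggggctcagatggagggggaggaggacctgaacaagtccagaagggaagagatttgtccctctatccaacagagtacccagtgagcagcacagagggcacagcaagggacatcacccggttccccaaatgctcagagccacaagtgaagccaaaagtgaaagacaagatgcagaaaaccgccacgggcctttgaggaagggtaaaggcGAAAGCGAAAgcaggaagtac
PSME2: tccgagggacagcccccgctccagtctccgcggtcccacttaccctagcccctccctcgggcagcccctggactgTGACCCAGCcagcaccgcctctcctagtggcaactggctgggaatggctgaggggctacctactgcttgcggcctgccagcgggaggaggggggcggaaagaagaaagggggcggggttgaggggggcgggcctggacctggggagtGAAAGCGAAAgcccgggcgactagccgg
PSMB3, a core beta subunit, held 1 match to TGACNNNGC whose first base lies 104 bases before the start, and CCAAT at 55 and 13 bases before it. The PSMB5 window held CCAAT at 164 bases and no other match. PSMB10 and PSME2 both held GAAAGCGAAA, at 21 and 28 bases before the start, and PSME2 also held TGACCCAGC at 175 bases.

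Across the family, TGACNNNGC was in 11 of 42 promoters (26.2%, against 11% of all 27305 promoters searched), and CCAAT was in 18 (42.9% against 33%). Each symbol entered with 1 promoter, the first listed for it, so other starts of a gene were not searched. TTCNNNGAA was in 5 (11.9% against 6.78%), and the IRF element was in 5 (11.9% against 3.07%), those of PSMA4, PSMB4, PSMB10, PSME2 and PSMG4. A match is a description of the letters in the window and not a site shown to be bound. Split by the calls at 8 against 1 kPa given below, a split made after they were known, CCAAT was in 8 of the 12 promoters of members called higher and in 9 of 28 promoters of the other members tested. TGACNNNGC was in 2 of 12 and 9 of 28, TTCNNNGAA in 2 of 12 and 2 of 28, and the IRF element in 1 of 12 and 4 of 28.

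Library totals were 1.43e+07 to 1.59e+07 counts in the 1 kPa group, 1.50e+07 to 2.53e+07 in the 8 kPa group and 2.39e+07 to 2.78e+07 in the 30 kPa group. Replicate 1 at 8 kPa was as shallow as the 1 kPa libraries, which made 5 shallow libraries, and every 30 kPa library was deep. The mitochondrial share of counts in order of stiffness was 13.5% ± 1.59, 10.7% ± 0.553 and 12.4% ± 0.604 (SD, n = 4 libraries a group). All 10 immune markers stood under 1 CPM (counts per 1000000 counts of the library) in every library, with 4 of them at 0 throughout, and their summed level was 0.391 to 1.12 CPM. The 10 adrenergic neuroblastoma markers summed to 593 to 977 CPM at 1 kPa, 865 to 1.28e+03 at 8 kPa and 941 to 1.08e+03 at 30 kPa, with TH under 1 CPM, and PHOX2A and STMN2 were among those called higher at 8 than at 1 kPa. The 5 mesenchymal markers summed to 3.86e+03 to 4.27e+03, 3.52e+03 to 4.21e+03 and 3.19e+03 to 3.67e+03 CPM in that order. The fibroblast list, whose collagens flat neuroblastoma cells also make, summed to 1.85e+03 to 2.39e+03 CPM over the libraries, the epithelial list to 46.5 to 72.6 and the endothelial list to 2.7 to 10.3. The share of proteasome differences that goes with these shifts was not tested.

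On the 8 kPa surface 16 proteasome genes stood higher than on the 1 kPa surface, each by 1.13-fold to 1.27-fold. The summed level of all members was 3969, 3906, 4030 and 4140 CPM in the 1 kPa libraries, 4460, 4489, 4522 and 4463 CPM at 8 kPa and 3976, 4104, 4168 and 4361 CPM at 30 kPa. All 8 kPa libraries lay above all others, and the 30 kPa libraries overlapped those at 1 kPa. Of the 46 members that passed the filter on low counts, 16 were called higher at 8 than at 1 kPa and 1 was called lower (adjusted p under 0.05 in edgeR's quasi-likelihood test over 17960 genes). The background of all tested genes was 8.17% called higher and 5.6% called lower. The median log2 fold change of the 46 was 0.13, beside -0.01 over all genes, and 39 of the 46 values were above 0. At an unadjusted p under 0.05 there were 29 members, beside 31.2% of all genes. In 23 members no 1 kPa library reached the lowest 8 kPa library, against a background of 9.41% of genes, and in none did the groups separate the other way, against a background of 7.36%. Set against the 1 kPa libraries of like depth, 8 kPa replicate 1 lay above all 4 of them in 30 of the 46 members, and in 29.9% of all genes.

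**Figure D1:**
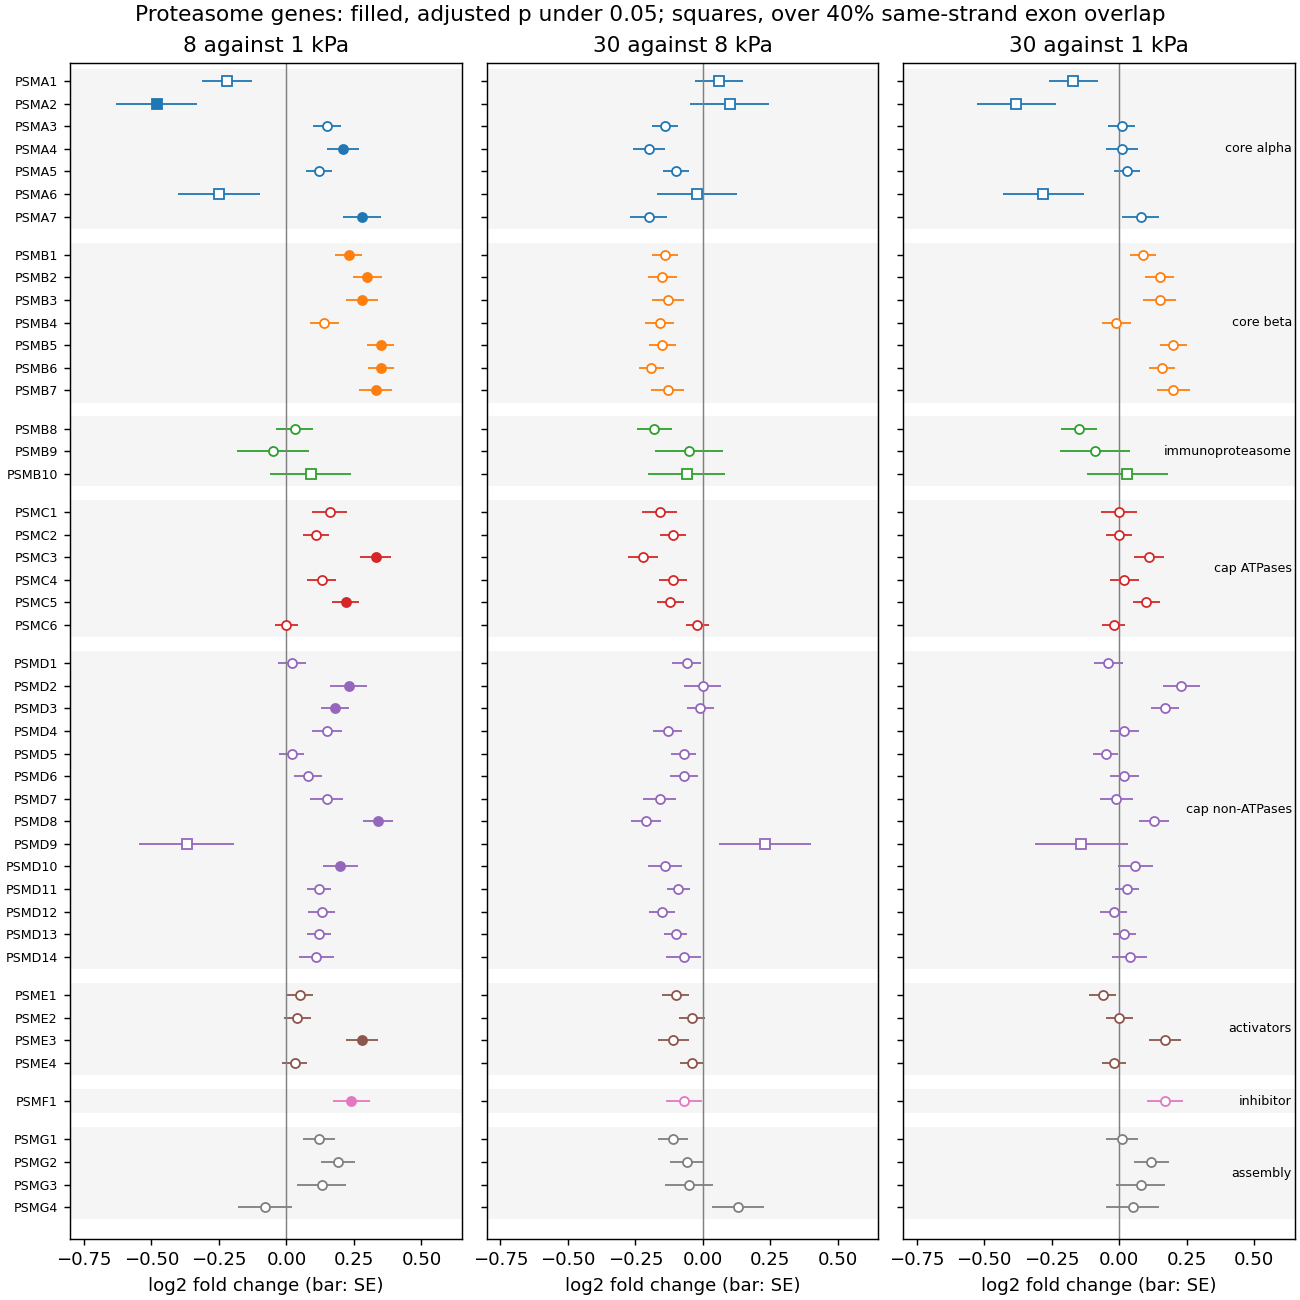
Log2 fold change of each tested proteasome gene between stiffnesses (horizontal axis, bars are the SE), grouped by role. Filled points passed an adjusted p of 0.05 and squares are the 5 genes lying by over 40% in exons of another gene on the same strand. The filled points fall in the left panel alone, and all 7 core beta genes sit at 0.14 to 0.35 there and at -0.19 to -0.13 for 30 against 8 kPa.

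The constitutive beta subunits had the largest median of the classes with more than 1 gene. At 8 against 1 kPa 6 of the 7 were called higher, beside 8.17% of all genes, with a median log2 fold change of 0.30 over all 7. PSMB5, the chymotrypsin-like cutting subunit and the main target of bortezomib, stood at 65.5, 66.5, 70.8 and 69.8 CPM at 1 kPa, at 91.6, 85.9, 86.9 and 82.5 CPM at 8 kPa and at 75.6, 75.6, 78.6 and 82.5 CPM at 30 kPa. The lowest 8 kPa library was thus above the highest at 1 kPa and level with the highest at 30 kPa. The log2 fold change of PSMB5 at 8 against 1 kPa was 0.35 ± 0.05 (SE, adjusted p = 0.00521), a 1.27-fold difference.

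PSMB6, the caspase-like cutting subunit, stood at 48.6, 50.9, 50.1 and 52.7 CPM at 1 kPa, at 64.04, 66.7, 64.4 and 62.2 CPM at 8 kPa and at 55.7, 55.7, 54.3 and 60.1 CPM at 30 kPa. Its 3 groups did not overlap, with 30 kPa between the other two. The difference at 8 against 1 kPa was 0.35 ± 0.0487 on the log2 scale (adjusted p = 0.00521). PSMB7, the trypsin-like cutting subunit, stood at 102, 87.7, 103 and 108 CPM at 1 kPa, at 124, 125, 125 and 128 CPM at 8 kPa and at 110.1, 110.2, 117 and 123 CPM at 30 kPa. Again the order was 1, 30, 8 kPa with no overlap, and 1 kPa replicate 2 was the lowest of its group. The log2 fold change of PSMB7 was 0.33 ± 0.0615 (adjusted p = 0.0094).

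The beta subunits without a cutting site of their own followed. PSMB2 stood at 67.6, 62.6, 71.1 and 71.5 CPM at 1 kPa, at 84.1, 82.7, 84.6 and 83.8 CPM at 8 kPa and at 71.3, 73.7, 75.1 and 82.1 CPM at 30 kPa (8 against 1 kPa 0.30 ± 0.0552, adjusted p = 0.00892). PSMB3, whose promoter is printed above, rose by 0.28 ± 0.0603 (adjusted p = 0.0124) and PSMB1 by 0.23 ± 0.0483 (adjusted p = 0.0125) on the same scale. PSMB4 had the largest level per length of the family, 303.8 CPM per kb of its principal transcript, followed by the ubiquitin receptor PSMD4 with 169.8. Its difference of 0.14 ± 0.0539 missed the threshold (adjusted p = 0.0855), although its libraries at 302.0 to 323 CPM all lay above those at 1 kPa, at 268 to 295 CPM.

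**Figure D2:**
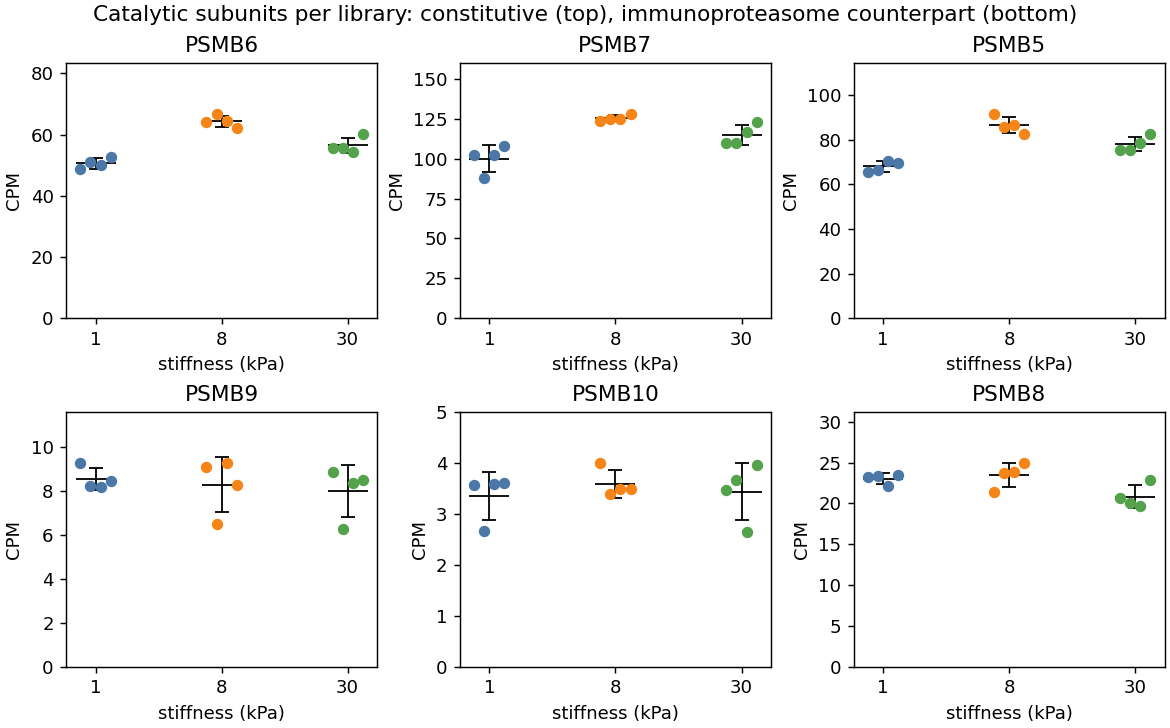
CPM of the 3 constitutive cutting subunits (top) and of the immunoproteasome subunit that takes the place of each (bottom) in every library at 1, 8 and 30 kPa, with the mean and SD of 4 libraries. The 8 kPa points lie above all 1 kPa points in the top panels, and the groups overlap in all bottom panels.

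None of the 3 immunoproteasome genes was called in any comparison. At 8 against 1 kPa 8.17% of all genes were called higher and 5.6% lower, so no call among 3 genes is near that share. PSMB8, the counterpart of PSMB5, stood at 23.3, 23.3, 22.1 and 23.6 CPM at 1 kPa, at 21.4, 23.7, 23.9 and 25 CPM at 8 kPa and at 20.7, 20.1, 19.7 and 22.9 CPM at 30 kPa. The groups overlapped, and the difference at 8 against 1 kPa was 0.03 ± 0.0669 (adjusted p = 0.794). PSMB8 was lower at 30 kPa, by -0.18 ± 0.0654 against 8 kPa (adjusted p = 0.2) and -0.15 ± 0.0669 against 1 kPa (adjusted p = 0.257). PSMB9, the counterpart of PSMB6, stood between 8.19 and 9.29 CPM on the softest surface, between 6.52 and 9.30 on the middle one and between 6.27 and 8.89 on the stiffest, with a log2 difference at 8 against 1 kPa of -0.05 ± 0.132 (adjusted p = 0.838). PSMB10, the counterpart of PSMB7, stood between 2.66 and 3.61, 3.38 and 4.00, and 2.65 and 3.96 CPM in the same order, with a difference of 0.09 ± 0.151 (adjusted p = 0.74). PSMB10 rested on as few as 37 counts in a library, and the standard errors of 0.132 and 0.151 compare with 0.0487 to 0.0615 for the 3 constitutive cutting subunits, so a step of the size seen in PSMB5 was less detectable in PSMB9 and PSMB10. PSMB8 and PSMB9 lie side by side in the MHC region of chromosome 6, at 32840717 to 32844703 and 32844136 to 32859585 (GRCh38, GENCODE v29), and share 139 exon bases on opposite strands. Because the strand setting of the counts is not given in the sources used here, reads from that stretch cannot be assigned to either.

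Per length, each immunoproteasome gene stood below its constitutive counterpart in every library. PSMB8 was at 40.9%, 40.4%, 36% and 38.9% of PSMB5 at 1 kPa, at 26.9%, 31.8%, 31.6% and 34.9% at 8 kPa and at 31.5%, 30.6%, 28.9% and 31.9% at 30 kPa (CPM per kb). No library at 8 or 30 kPa reached the lowest 1 kPa library in this ratio. PSMB9 was at 18.5% ± 1.58, 14.1% ± 2.36 and 15.5% ± 2.29 of PSMB6 in order of stiffness (SD, n = 4 libraries a group), and its 1 kPa libraries, at 17.5% to 20.8%, lay above the highest at 8 kPa, 15.7%, and at 30 kPa, 17.4%. PSMB10 was at 2.68% ± 0.174, 2.3% ± 0.202 and 2.4% ± 0.389 of PSMB7, and its groups overlapped. Exons of another gene on the same strand cover 45.3% of the PSMB10 transcript, and the part this has in its ratio was not tested. The ratios take in the differences of their denominators given above. From 1 to 8 kPa mean PSMB8 went from 20.52 to 20.91 CPM per kb and PSMB5 from 52.65 to 67.01. Over the same step PSMB9 went from 10.94 to 10.62 and PSMB6 from 59.37 to 75.51. These ratios carry no test and no background from other gene pairs.

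Among the core alpha subunits, 2 of 7 were called higher and 1 lower at 8 against 1 kPa, beside 8.17% and 5.6% of all genes. The median log2 fold change was 0.12. PSMA7 stood at 105, 85.8, 99.9 and 105 CPM at 1 kPa, at 125, 119, 123 and 112 CPM at 8 kPa and at 98.1, 102, 104 and 115 CPM at 30 kPa (8 against 1 kPa 0.28 ± 0.0691, adjusted p = 0.021). PSMA4 rose by 0.21 ± 0.059 (adjusted p = 0.0335), with every 8 kPa library, 133 to 143 CPM, above the 1 kPa libraries, 108 to 132 CPM. PSMA3 and PSMA5 also separated at 8 against 1 kPa without passing the test (0.15, adjusted p = 0.0588, and 0.12, adjusted p = 0.104). PSMA2 was the 1 member called lower, and it stood at 8.94, 8.76, 6.50 and 7.15 CPM at 1 kPa, at 4.92, 5.96, 4.77 and 6.71 CPM at 8 kPa and at 6.26, 6.56, 4.77 and 6.54 CPM at 30 kPa. Its groups overlapped, and the fall of -0.48 ± 0.15 (adjusted p = 0.0482) rested on 75 to 167 counts per library. PSMA2 was no longer called without 1 kPa replicate 1 or 2, 8 kPa replicate 1, 2 or 3, or 30 kPa replicate 1, 2 or 4, with an adjusted p of up to 0.143.

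PSMA2 belongs to 5 members whose counts need care, because over 40% of the principal transcript lies in exons of another GENCODE v29 gene on the same strand. The shares were 53.2% for PSMA1, 52.5% for PSMA2, 81% for PSMA6, 45.3% for PSMB10 and 43.8% for PSMD9, which is an assembly chaperone of the cap. How reads in such shared exons were counted is not given in the sources used here. These 5 stood at 2.59 to 11.3 CPM per kb, against 10.6 to 303.8 CPM per kb (median 50.67) in the other 41 tested members. PSMA1, PSMA2 and PSMA6 are parts of the same ring as PSMA3, PSMA4, PSMA5 and PSMA7, which stood at 19.8 to 108 CPM per kb. Of the 5, 4 had a fold change below 0 at 8 against 1 kPa, with a median of -0.25. Without them 16 members were called higher and 0 lower, beside 8.17% and 5.6% of all genes. Of the 41 values 38 were above 0, beside 47.6% of all genes, and the median was 0.15. The 3 values not above 0 were -0.08 for PSMG4, -0.05 for PSMB9 and -0.00 for PSMC6. Leaving out the 5 was chosen after seeing the data, and it covers exons on the same strand alone. Members with exons shared on the opposite strand were kept, among them PSMC1 with 82.1% and PSMD7 with 50.4% of the transcript. The part that shared exons have in the values of the 5 was not tested.

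**Figure D3:**
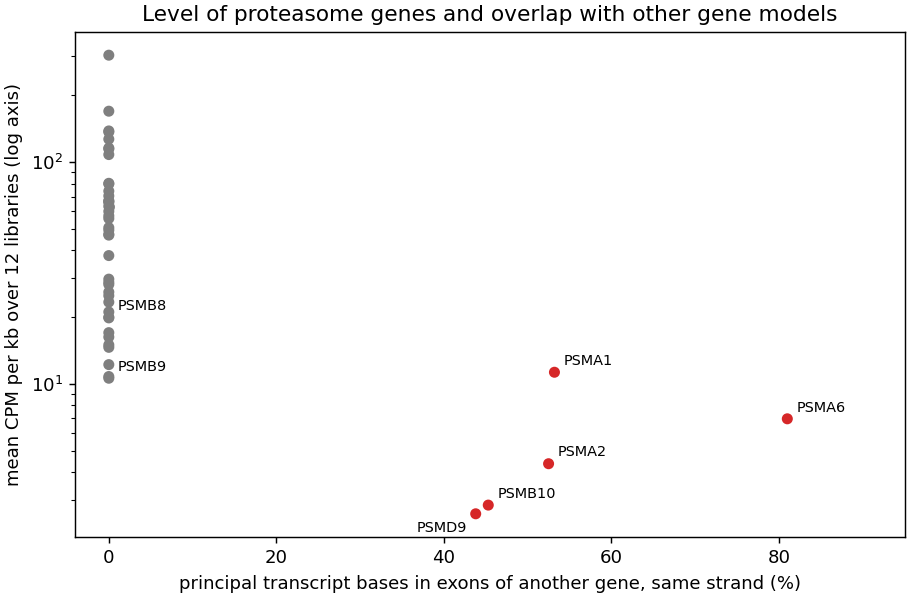
Mean level of each tested proteasome gene over 12 libraries, in CPM per kb of its principal transcript (vertical log axis), against the percent of that transcript in exons of another gene on the same strand (horizontal axis). The 5 red points over 40% lie at 2.59 to 11.3 CPM per kb and the 41 grey points at 10.6 to 303.8.

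In the cap 6 of 20 genes were called higher at 8 against 1 kPa and none lower, beside 8.17% and 5.6% of all genes. The median was 0.13, with 18 values above 0 and 2 below, the lowest -0.37 for PSMD9 (adjusted p = 0.167). PSMC3, an ATPase of the base that helps unfold and thread the substrate, stood at 80.8, 75.3, 77.8 and 83.1 CPM at 1 kPa, at 102, 99.2, 98.0 and 98.0 CPM at 8 kPa and at 77.1, 84.5, 89.7 and 90.7 CPM at 30 kPa. The 8 kPa libraries lay above all others, and the difference from 1 kPa was 0.33 ± 0.0559 (adjusted p = 0.00726). PSMC5, another base ATPase, rose by 0.22 ± 0.0499 (adjusted p = 0.0156), but 27.2% of its transcript is shared with FTSJ3 on the opposite strand, and reads of the pair cannot be told apart. The other ATPases, PSMC1, PSMC2, PSMC4 and PSMC6, had differences of 0.16, 0.11, 0.13 and -0.00, none past the threshold, and PSMC1 shares 82.1% of its transcript with NRDE2 on the opposite strand.

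PSMD8, a lid subunit, stood at 90.9, 86.6, 95.3 and 97.1 CPM at 1 kPa, at 124, 117, 118 and 109.6 CPM at 8 kPa and at 99.5, 99.3, 96.5 and 108 CPM at 30 kPa. Its 8 kPa libraries lay above all others, with a difference from 1 kPa of 0.34 ± 0.0553 (adjusted p = 0.00656). PSMD2, a scaffold and ubiquitin receptor of the base, had another order, with 205 to 230.1 CPM at 1 kPa, 241 to 276 CPM at 8 kPa and 227 to 273 CPM at 30 kPa. It rose by 0.23 ± 0.0691 at 8 against 1 kPa (adjusted p = 0.0413) and differed by -0.00 ± 0.0687 at 30 against 8 kPa. PSMD3, a lid scaffold, was alike, with 0.18 ± 0.0507 (adjusted p = 0.0361) and -0.01 ± 0.05. PSMD10, known as gankyrin and a chaperone of base assembly, rose by 0.20 ± 0.0641 with an adjusted p of 0.0498, just inside the threshold, and its groups overlapped. PSMD14, the deubiquitinase of the lid, had 0.11 ± 0.0648 (adjusted p = 0.271), and PSMD5, a chaperone that holds back the base, had 0.02 ± 0.0466 (adjusted p = 0.812).

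Of the 4 activators that can replace or join the cap, PSME3 alone was called at 8 against 1 kPa, beside 8.17% of all genes higher. PSME3, the nuclear activator that works without ubiquitin, stood at 124, 111, 123 and 133 CPM at 1 kPa, at 158, 140.0, 148 and 149 CPM at 8 kPa and at 137, 135, 137 and 143 CPM at 30 kPa. Both stiffer groups lay above 1 kPa without overlap, and the difference at 8 against 1 kPa was 0.28 ± 0.0577 (adjusted p = 0.0118). The interferon-inducible pair PSME1 and PSME2, neighbours on chromosome 14, had differences of 0.05 ± 0.05 (adjusted p = 0.563) and 0.04 ± 0.0498 (adjusted p = 0.619), and PSME4, a large single-chain activator, had 0.03 ± 0.0451 (adjusted p = 0.742). PSME2 stood at 82.7 to 92.9 CPM at 1 kPa and at 87.0 to 92.0 CPM at 8 kPa, so the groups lay within each other. Whether PSME3 differs from the pair in its change was not tested.

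PSMF1, a protein that can inhibit the core in vitro, stood at 49.5, 39.8, 49.2 and 51.3 CPM at 1 kPa, at 56.2, 54.7, 56.3 and 57.9 CPM at 8 kPa and at 52.0, 52.0, 53.7 and 56.0 CPM at 30 kPa. It rose by 0.24 ± 0.0681 at 8 against 1 kPa (adjusted p = 0.0318), and 1 kPa replicate 2 was the lowest of its group. None of the 4 assembly factors, which pair up to build the alpha ring, passed the test. With 8.17% of all genes called higher at 8 against 1 kPa, no call among 4 genes is near that share. PSMG2 came nearest with 0.19 ± 0.0635 (adjusted p = 0.0655), followed by PSMG1 with 0.12 (adjusted p = 0.17), PSMG3 with 0.13 (adjusted p = 0.343) and PSMG4 with -0.08 (adjusted p = 0.636). The 2 tissue-restricted core genes were left out by the filter. PSMA8, the alpha subunit of the testis proteasome, had 0 counts in every library, and PSMB11, the beta subunit of thymic cortical epithelium, had 3 counts in all with at most 1 per library. A count of 0 allows up to 0.108 to 0.21 CPM, from 3 counts of each library's total, a floor that covers counting error only.

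**Figure D4:**
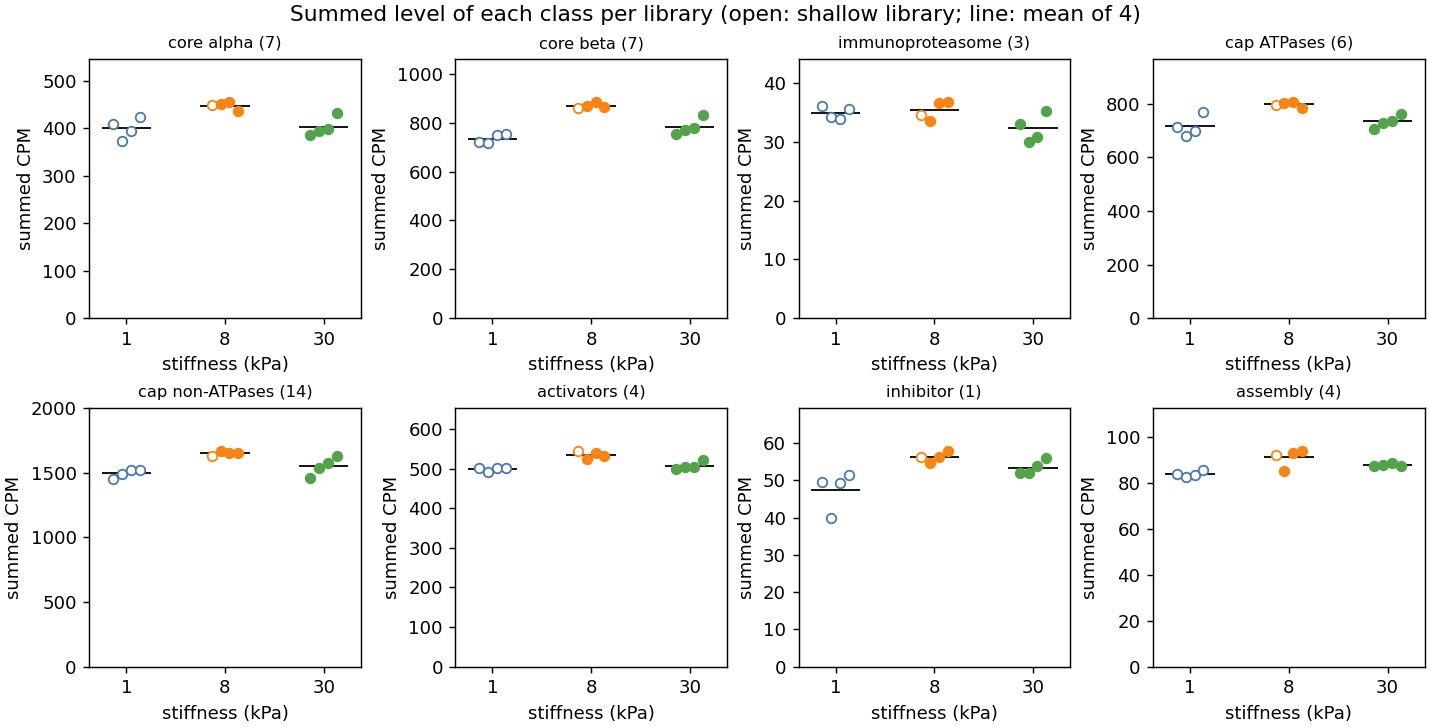
Summed CPM of each class of proteasome gene in each library at 1, 8 and 30 kPa, with the number of genes in brackets, open points for the 5 shallow libraries and a line at the mean of 4. The 8 kPa libraries lie above those at 1 kPa in the core, cap, activator and inhibitor panels and mix with them for the immunoproteasome.

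From 8 to 30 kPa most proteasome genes had lower values, none past the test. No member was called by edgeR, where the background over all genes was 0% called. At an unadjusted p under 0.05 there were 20 of 46 members, beside 17.9% of all genes. DESeq2 called 3 lower, PSMB6, PSMC3 and PSMD8, where 223 of all 17960 genes were lower and 94 higher (1.77% either way). Of the 46 values 42 were below 0, with a median of -0.11 beside 0.00 over all genes. In 14 members all 30 kPa libraries lay below all 8 kPa libraries, against a background of 6.5%, and in 0 above, against 4.79%. The smallest adjusted p was 0.133, for PSMC3 at -0.22 ± 0.0552, PSMD8 at -0.21 ± 0.0547 and PSMB6 at -0.19 ± 0.0477. The 2 comparisons share the 8 kPa libraries, so a high 8 kPa group enters both with opposite sign.

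Between the ends of the stiffness range no member passed edgeR's quasi-likelihood test in the main fit either. There 2.43% of all genes did (1.1% higher and 1.33% lower), and the median over members was 0.02. With a stricter filter on low counts edgeR called PSMB5, where 3.89% of all genes were called, and other fits are given at the end. At an unadjusted p under 0.05 there were 12 members, beside 18.9% of all genes. DESeq2 called 3 higher, PSMB5, PSMB7 and PSMD2, where 467 of all 17960 genes were higher and 503 lower (5.4% either way). PSMB5 came nearest in edgeR with 0.20 ± 0.0499 (adjusted p = 0.0526), ahead of PSMD3 with 0.17 ± 0.0506 (adjusted p = 0.0935) and PSMD2 with 0.23 ± 0.069 (adjusted p = 0.0957). In 6 members, PSMB3, PSMB5, PSMB6, PSMB7, PSME3 and PSMF1, all 30 kPa libraries lay above all 1 kPa libraries, against a background of 5.33%, and in 0 below, against 6.06%. Since all 30 kPa libraries were deep and all 1 kPa libraries shallow, stiffness and depth cannot be told apart in this comparison. Against the mean of 1 and 30 kPa, 8 kPa was called higher in 12 of 46 members, beside 4.42% of all genes, and lower in none, beside 2.66% (7.08% either way). These 12 were PSMA4, PSMA7, PSMB1, PSMB2, PSMB3, PSMB5, PSMB6, PSMB7, PSMC3, PSMC5, PSMD8 and PSME3. No call of the 12 held when each library was left out in turn, and without 8 kPa replicate 1 or 3 or 30 kPa replicate 1 or 2 the count was 0. How many of all genes kept a call in those fits is not reported here, so these losses may not be particular to the members.

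Of 13 partners of the proteasome that carry other symbols, 6 were called higher at 8 against 1 kPa and none lower. The background was 8.17% of all genes higher and 5.6% lower, and the median over the 13 was 0.13. POMP, a chaperone of core assembly, stood at 114, 113, 116 and 116 CPM at 1 kPa, at 133, 131, 138 and 137 CPM at 8 kPa and at 106, 124, 117 and 126 CPM at 30 kPa (0.24 ± 0.0549, adjusted p = 0.0167). SEM1, a small lid subunit, rose by 0.31 ± 0.0671 (adjusted p = 0.0134), UCHL5, a deubiquitinase of the cap, by 0.29 ± 0.0605 (adjusted p = 0.0122) and ADRM1, the ubiquitin receptor that recruits it, by 0.22 ± 0.0563 (adjusted p = 0.0234). PITHD1 and UBE3C, a ubiquitin ligase bound to the proteasome, also rose, by 0.23 and 0.16. USP14, the other deubiquitinase of the cap, had 0.07 (adjusted p = 0.303).

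Among 14 factors known to switch proteasome genes on, to activate that switch or to restrain it, none was called higher and 1 lower. That is near the 5.6% of all genes called lower at 8 against 1 kPa, and the median was 0.01. NFE2L1 stood at 495, 555, 517 and 461 CPM at 1 kPa, at 457, 506, 461 and 463 CPM at 8 kPa and at 483, 523, 502 and 473 CPM at 30 kPa. Its groups overlapped and the difference at 8 against 1 kPa was -0.10 ± 0.0659 (adjusted p = 0.296). NFE2L1 is known to be controlled after its mRNA is made, by retention, cutting and decay of the protein, which these data do not measure. BACH1, a repressor at antioxidant elements, fell by -0.14 ± 0.0425 at 8 against 1 kPa (adjusted p = 0.0409) and by -0.18 ± 0.0424 at 30 against 1 kPa (adjusted p = 0.0443). The BACH1 call at 8 against 1 kPa was lost without any 1 library of 1 or 8 kPa or without 30 kPa replicate 3, where the adjusted p reached 0.0954. The call at 30 against 1 kPa was lost in 10 of the 12 fits that each left out 1 library, with an adjusted p of up to 0.137. KEAP1, the adaptor that marks NFE2L2 for decay, had 0.15 ± 0.059 (adjusted p = 0.0935), and NFYA, a subunit of the CCAAT-binding factor, had 0.18 ± 0.0862 (adjusted p = 0.161).

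Ubiquitin genes and shuttles gave 3 higher and 0 lower of 15, beside 8.17% of all genes higher, with a median of 0.05. RPS27A, which encodes ubiquitin fused to a ribosomal protein, stood at 314, 262, 320.2 and 348 CPM at 1 kPa, at 411, 394, 437 and 394 CPM at 8 kPa and at 329, 342, 356 and 391 CPM at 30 kPa (0.40 ± 0.082 at 8 against 1 kPa, adjusted p = 0.0117). The polyubiquitin gene UBB, which carries no ribosomal part, had 0.16 ± 0.0852 (adjusted p = 0.231).

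Among 11 genes of antigen processing, which uses the peptides the proteasome cuts, 4 were called lower at 8 against 1 kPa and none higher. The background was 5.6% of all genes lower, and the median over the 11 was -0.21. TAPBP, tapasin of the peptide-loading complex, stood at 183, 196, 184 and 162 CPM at 1 kPa, at 126, 147, 133 and 135 CPM at 8 kPa and at 153, 161, 145 and 150.3 CPM at 30 kPa. All 8 kPa libraries lay below all 1 kPa libraries, and the fall was -0.42 ± 0.0649 (adjusted p = 0.00552). IRF1, an interferon-responsive factor that binds elements like those printed for PSMB10 and PSME2, fell by -0.31 ± 0.0847 (adjusted p = 0.0292), TAP1, a peptide transporter encoded beside PSMB9, by -0.22 ± 0.0618 (adjusted p = 0.0308) and B2M, the light chain of MHC class I, by -0.26 ± 0.0713 (adjusted p = 0.0313). At 30 against 8 kPa no gene of the 4 lists was called by edgeR, where 14 of 53 had an unadjusted p under 0.05, beside 17.9% of all genes, and DESeq2 called 2, beside 1.77%. At 30 against 1 kPa BACH1 was the 1 call of 53, beside 2.43% of all genes.

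At 30 against 8 kPa the deep libraries alone could be compared, where 2 of 17832 genes were called higher and 0 lower. The values of the members in that fit are not reported here. At 8 against 1 kPa library depth could be set apart from stiffness only through 8 kPa replicate 1, the lone shallow library outside the 1 kPa group. Depth varied within the 8 kPa group alone, so with a depth term the 8 against 1 kPa difference rests on that library too. With the depth class as a term in edgeR's fit, 0 members and 0 of all genes passed, with 17 members and 23.9% of all genes at an unadjusted p under 0.05, while the median over members was 0.14. In the shallow libraries alone, 8 kPa replicate 1 against the 4 at 1 kPa, 0 members and 0 of all genes passed, with 14 members and 16.9% of all genes at an unadjusted p under 0.05, and the median was 0.15. The values of PSMB5, PSMB6 and PSMD8 were 0.44, 0.35 and 0.43 there, and 0.43, 0.34 and 0.42 with the depth term (adjusted p = 0.0643, 0.0658 and 0.0643). Both fits thus set the same lone 8 kPa library against the 1 kPa group and are not separate results. That library is assumed to vary like the others. Calls lost to depth and calls lost to so small a comparison cannot be told apart. PSMB2, PSMB5, PSMB6, PSMB7, PSMC3, PSMD8 and PSME3 were called at 8 against 1 kPa in all 12 fits that each left out 1 library. The other 10 of the 17 calls were lost in at least 1 of them, in 10 for PSMD2 and PSMD10, 8 for PSMA2 and PSMD3, 6 for PSMA4, 4 for PSMF1, 2 for PSMA7 and 1 for PSMC5, and PSMB1 and PSMB3 were the remaining genes of the 10. The count of members called fell to 7 when 8 kPa replicate 3 was left out, to 10 for replicate 1 of that group and to 11 for 1 kPa replicate 2. The number of all genes called in these fits is not reported here. A loss of calls in members alone and a loss over all genes thus cannot be told apart. Of the other genes of the pathway, TAPBP, RPS27A and UCHL5 were called in all 12, while POMP and SEM1 were lost without 8 kPa replicate 3, with adjusted p values of 0.0632 and 0.0572, TAP1 was lost in 5, and IRF1 and ADRM1 were each lost in 3.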

How the data were processed

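SK-N-SH cells at 1, 8 and 30 kPa gave 12 bulk RNA-seq libraries, grouped by their titles. The authors deposited raw counts per gene and library. Reads were aligned with HISAT2 to GRCh38, per the submitters' processing notes, while the counting tool, annotation release and strand setting are not given in the sources used here. Gene symbols were matched by Ensembl identifier (60463 of 60664, with a symbol for 42028), and positions, exons and principal transcript lengths came from GENCODE v29. The members, lists and naming rule were chosen with earlier results of these data known. The rule named all catalytic, immunoproteasome, activator, inhibitor and assembly genes, the smallest and largest adjusted p of each class, members against the family's sign and up to 3 genes of each pathway list. PSMA3, PSMA5, PSMB1, PSMB3, PSMC1, PSMC2, PITHD1, UBE3C, USP14, UBB and B2M were named after their values were seen, and some genes of the lists are not reported here by name.

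The edgeR package (4.0.16, under R 4.3.3) was run on the counts. After filterByExpr, 17960 genes were scaled by TMM and fitted over all 12 libraries with no term but stiffness. The quasi-likelihood F-test compared the groups, adjusted over all tested genes by Benjamini-Hochberg with a threshold of 0.05, and each SE is the log2 fold change over the root of F. CPM are counts per 1000000 of the library total after TMM, and CPM per kb divides by the principal transcript length. Totals of 1.43e+07 to 2.78e+07 counts limit the precision of genes with few counts. The 44 pseudogenes of the family, counted apart, held 660 counts, which equals 0.0621% of the members' 1063375 counts. The largest shares of a parent gene were 2.67% of PSMA6 for PSMA6P1 and 1.54% of PSMC1 for PSMC1P1. Alternatives were median-ratio and library-size scaling, no filter and a stricter filter, DESeq2 1.42.0, limma-voom (limma 3.58.1), the 2 groups alone, a replicate block, a depth term, a length and GC offset and each library left out. The shallow-only, deep-only and overlap-free versions were chosen after seeing the data. The fits were tested on simulated counts.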

Additional observations from a re-analysis of the deposited data

Results flagged for a closer look

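In 9 of 147 groups of 4 libraries examined, 1 library stood far from the other 3, and chance alone gives about 1 in 20 groups. PSMB10 was at 2.656 CPM in 1 library at 1 kPa, where the others were at 3.563 to 3.608, and at 4.002 CPM in 1 library at 8 kPa, where the others were at 3.38 to 3.479. PSMA2 was at 4.765 CPM in 1 library at 30 kPa, below 6.258 to 6.564 in the others. PSMG2 was at 29.87 CPM in 1 library at 30 kPa, above 28.67 to 28.84. UCHL5 was at 89.21 CPM in 1 library at 8 kPa, above 85.56 to 86.03. NFE2L1 was at 505.6 CPM in 1 library at 8 kPa, above 456.8 to 463. NFYA was at 49.81 CPM in 1 library at 1 kPa, below 60.34 to 61.14, and at 57.07 CPM in 1 library at 8 kPa, below 68.43 to 70.0. The total of 8 kPa replicate 1 was 14.95 M counts, below 24.24 to 25.35 M in the other 8 kPa libraries.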

How the results depend on the processing

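At 8 against 1 kPa 17 members were called in all, beside 13.8% of all genes. With only the 2 groups in the fit there were 11, beside 6.53% of all genes. The count was 0 for members and for all genes with the depth class as a term, where the difference rests on 8 kPa replicate 1. Leaving out each library in turn gave 7 to 20 members. The share of all genes called is not reported here for any fit that leaves out 1 library. At 30 against 8 kPa 0 members became 3 with DESeq2, beside 1.77% of all genes against 0% in the main fit. Without 1 library there were 0 to 3, the 3 appearing without 8 kPa replicate 4. At 30 against 1 kPa 0 members, beside 2.43% of all genes, became 1 with the stricter filter, beside 3.89%, and 3 with DESeq2, beside 5.4%. Without 1 library there were 0 to 1, the 1 without 8 kPa replicate 4. The count of 12 for 8 kPa against the mean of 1 and 30 kPa ran from 0 to 17 without 1 library. It was 18 with DESeq2, beside 11.5% of all genes against 7.08% in the main fit. Of the pathway genes 14 were called at 8 against 1 kPa, beside 13.8% of all genes. With only the 2 groups there were 8, beside 6.53%, and with the depth term 0, beside 0%. Without 1 library there were 5 to 15, the lowest without 8 kPa replicate 3. At 30 against 8 kPa 0 pathway genes became 2 with DESeq2 and 0 to 4 without 1 library, the highest without 8 kPa replicate 4. At 30 against 1 kPa the 1 pathway gene called became 2 with the stricter filter, 3 with DESeq2 and 2 with limma-voom, the last beside 2.34% of all genes. The count became 0 by library size alone, beside 1.46%, 0 with only the 2 groups, beside 2.05%, and 0 with the depth term, beside 0%. Without 1 library there were 0 to 2. Same-numbered libraries had correlations of -0.134 to 0.369 in their deviations from the group means, against -0.299 to 0.241 for other numbers, and 15 of 24 comparisons were best with the own number, a hint of pairing from the data and not from the design. The number was taken to pair the samples only if every same-numbered pair passed 0.1, and 6 of 12 did, so the fits have no block. With the replicate block 20 members were called at 8 against 1 kPa, beside 18.2% of all genes. At 30 against 1 kPa that block gave 3 members (PSMB5, PSMB7 and PSMD2) and 4 pathway genes, beside 5.42% of all genes. Of 3264 values of named genes under the alternatives, 3061 kept their side of the threshold, 171 lost the call, 32 gained one and 0 with a call changed sign, while 82 of the 3061, with no call in either fit, did change sign. Where a count changed, the cause was not tested. Among the members tested, PSMB10, PSMA2, PSMA6 and PSMD9 had the fewest counts, 864 to 1780 over all libraries, and the fits of pairs rest on 4 libraries a group.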
